A study of Rattus norvegicus with 14 samples.

Results

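The genes described here are those of the proteasome and of the enzymes that attach or remove ubiquitin, in small intestine of rats. They are all genes of the array whose symbol begins with Psma to Psmg, Uba, Ube1 to Ube4, Usp, Uch or Cul followed by a family number or letter. This gave 36 probes for 35 genes, out of 4952 probes and 4156 named genes: 28 genes of the proteasome and 7 ubiquitin enzymes. The 28 were the 7 alpha and the 7 beta subunits of the 20S core, 2 inducible beta subunits, 5 ATPases and 4 other subunits or partners of the 19S cap, and 3 activator genes. The 7 were 3 E2 enzymes, 1 cullin and 3 deubiquitinases, and no E1 gene matched among the named probes. A name decided which genes were members, although this set of genes was picked for description with earlier results of these data known.

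Small intestine of 20-day-old rats was perfused with HG or HF, and the RNAs were compared on 2-colour arrays. HG and HF are read here as high glucose and high fructose, which the labels do not spell out. There were 5 arrays of HG against HF at 4 h, each with another RNA pair, 4 such arrays at 20 min, and 3 arrays with the same RNA in both channels, called self-self here (1HG, 3HG and 3HF). By their labels the self-self RNAs were of 4 h perfusion and bear the names used in pairs 1 and 3, so they share RNA with arrays 1 and 3 at 4 h if the names mean the same extracts, stand for only 2 pairs, and set RNA of 4 h beside the arrays at 20 min. A sixth array at 4 h repeated pair 2, and a primer array held only the primers of a labelling kit; both were left out of every test and are given apart. The age is written with its unit for arrays 1 to 5 and without it for the others, the labels give no strain or sex, and no array is labelled as intestine perfused with neither sugar. Nothing in the labels says that the pairs came from separate animals, so the p-values reflect variation among these arrays that may in part be technical.

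Each value is a log ratio of both channels, taken as log2, after the median of its array was set to 0. The labels do not state its direction. A positive value is likely the HF side, because Slc2a5, the fructose transporter GLUT5, had ratios of 1.53, 1.62, 1.95, 1.84 and 1.33 on the 5 arrays at 4 h. On the repeat of pair 2 its ratio was -1.66, and the title of that array adds a 5 to HG and a 3 to HF, which may mark swapped dyes. On the arrays at 20 min Slc2a5 had ratios of -0.38, -0.01, -0.43 and -0.44, which do not settle the direction of those arrays. Every sign below rests on reading a positive value as the HF side. The comparison of 4 h with 20 min also assumes the same direction at both times, which was not tested. The self-self array 1HG stood apart, with many probes far from 0, and results that rest on it are given with and without it. A ratio cannot tell more RNA with HF from less RNA with HG, and in whole tissue a change in the cells present and a change of RNA per cell cannot be told apart.

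The proteasome degrades proteins that carry chains of ubiquitin. An E1 enzyme activates ubiquitin, an E2 carries it, an E3 ligase, often built on a cullin, passes it to the substrate, and deubiquitinases take it off again. The 19S cap binds and unfolds the tagged protein and feeds it into the 20S barrel, where the beta ring cuts it. The small intestine renews its lining continuously, and the pathway there serves the turnover of damaged, regulatory and misfolded proteins.

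The promoters of the 4 proteasome genes with the smallest p between 4 h and 20 min are shown because genes of this complex are known to be regulated together. They come from RefSeq on assembly GRCr8, run from 250 bases before to 50 bases after the gene start, and are printed on the strand of the gene. Psmb6 lies at chr10:55737638-55737937 on the plus strand, Psmb1 at chr1:65134721-65135020 on the minus strand, Psma1 at chr1:177887808-177888107 on the minus strand and Psmd9 at chr12:39018215-39018514 on the minus strand. Capitals mark matches, on either strand, to TGACNNNGC or TGAGNNNGC (the core of the antioxidant response element, which NRF1 and NRF2 bind), to CCAAT and to GGGCGG.
Psmb6: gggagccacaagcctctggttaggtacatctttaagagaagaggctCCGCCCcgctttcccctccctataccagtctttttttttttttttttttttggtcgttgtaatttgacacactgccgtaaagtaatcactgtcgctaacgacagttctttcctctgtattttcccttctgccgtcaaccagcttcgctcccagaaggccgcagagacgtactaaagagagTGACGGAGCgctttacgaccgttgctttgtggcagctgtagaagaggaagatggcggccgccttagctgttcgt
Psmb1: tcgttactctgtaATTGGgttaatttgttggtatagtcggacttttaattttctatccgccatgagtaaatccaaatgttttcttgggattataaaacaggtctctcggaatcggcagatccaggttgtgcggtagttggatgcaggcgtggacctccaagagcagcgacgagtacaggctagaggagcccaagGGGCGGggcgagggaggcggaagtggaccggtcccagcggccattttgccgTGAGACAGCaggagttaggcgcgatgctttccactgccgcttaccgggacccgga
Psma1: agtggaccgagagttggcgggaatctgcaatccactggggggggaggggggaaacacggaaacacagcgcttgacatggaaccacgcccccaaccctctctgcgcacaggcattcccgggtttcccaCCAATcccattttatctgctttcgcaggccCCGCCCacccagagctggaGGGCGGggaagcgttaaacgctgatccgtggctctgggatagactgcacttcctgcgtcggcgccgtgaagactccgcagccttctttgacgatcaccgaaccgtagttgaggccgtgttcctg
Psmd9: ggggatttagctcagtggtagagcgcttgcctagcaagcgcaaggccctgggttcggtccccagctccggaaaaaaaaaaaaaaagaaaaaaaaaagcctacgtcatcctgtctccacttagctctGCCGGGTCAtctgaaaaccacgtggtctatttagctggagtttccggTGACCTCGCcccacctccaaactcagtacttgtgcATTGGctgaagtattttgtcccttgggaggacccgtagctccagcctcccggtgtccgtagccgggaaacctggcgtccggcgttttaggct

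The antioxidant response core began at position -24 in Psmb6, at -5 in Psmb1 and at 2 positions in Psmd9, and was not matched in the Psma1 window. A promoter was listed for 27 of the 28 proteasome genes and for all 7 ubiquitin enzymes. The core was matched in 11 of 27 proteasome promoters (40.7%), in 4 of 7 ubiquitin enzyme promoters and in 31.0% of the 3577 promoters of genes on the array. CCAAT was matched in 16 of 27 (59.3%), in 2 of 7 and in 37.5%. GGGCGG was matched in 21 of 27 (77.8%), in 4 of 7 and in 53.9%. These are counts of letters within the 300 bases and say nothing of binding.

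Proteasome genes lay mostly above 0 on the arrays at 4 h and around 0 on the others. The median ratio of the 28 genes was 0.02, 0.16, 0.32, 0.20 and 0.30 on the 5 arrays at 4 h, against 0.03, -0.02, -0.08 and 0.04 on the 4 arrays at 20 min and 0.08, -0.04 and 0.00 on the self-self arrays 1HG, 3HG and 3HF. The lowest array at 4 h lay inside the ranges of the 20 min and the self-self arrays, and the other 4 lay above both. These medians averaged 0.20 ± 0.12 at 4 h (SD, n = 5), against -0.01 ± 0.05 at 20 min (n = 4) and 0.01 ± 0.06 on the self-self arrays (n = 3). The number of proteasome genes above 0 was 16, 20, 25, 23 and 23 of 28 at 4 h, against 15, 11, 12 and 19 at 20 min. On the self-self arrays 1HG, 3HG and 3HF it was 20, 13 and 14, so 1HG reached the count of array 2 and passed that of array 1.

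The ubiquitin enzymes lay on both sides of 0 at each time. Their median ratio was -0.05, -0.00, -0.12, 0.08 and 0.12 on the arrays at 4 h, against -0.24, -0.01, -0.10 and -0.01 at 20 min and -0.05, 0.13 and 0.04 on the self-self arrays. The 3 sets of arrays overlapped. On each array the proteasome median minus the ubiquitin enzyme median was 0.08, 0.16, 0.43, 0.12 and 0.18 at 4 h, against 0.27, -0.01, 0.02 and 0.05 at 20 min and 0.12, -0.18 and -0.04 on the self-self arrays. The gap was above 0 on 5 of 5 arrays at 4 h, 3 of 4 at 20 min and 1 of 3 self-self arrays, but the 4 h and 20 min ranges overlapped, and 7 enzymes give a coarse median. No test was made of these medians.

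**Figure D1:**
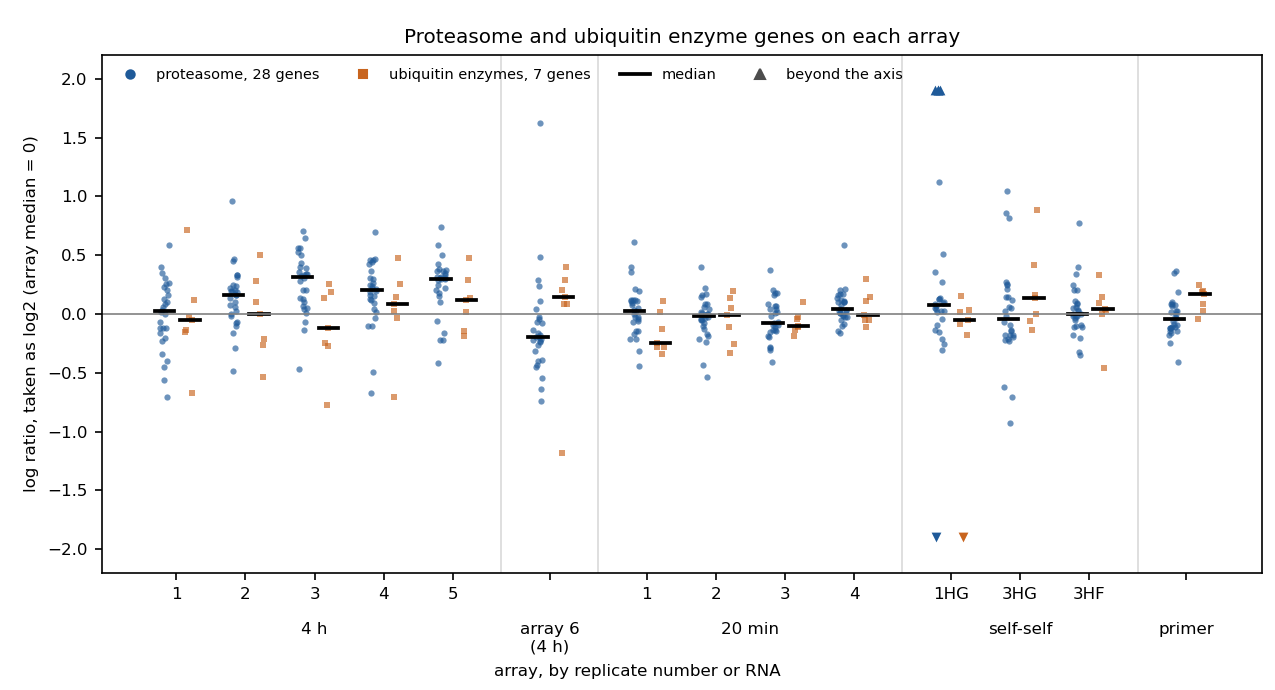
Log ratio (taken as log2, array median 0) of each member on each array, with 28 proteasome genes as blue circles, 7 ubiquitin enzymes as orange squares and a black bar at the median of each class; triangles stand for values beyond the axis. Proteasome medians at 4 h run from 0.02 to 0.32, the repeat of pair 2 (array 6) sits at -0.19, and most values far from 0 are on the self-self array 1HG.

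The array that repeated pair 2 had most proteasome genes below 0. Its proteasome median was -0.19, against 0.16 on the first array of that pair, and 22 of 28 genes lay below 0. The sign differed between these 2 arrays for 16 of 28 proteasome genes (57.1%), for 3 of 7 ubiquitin enzymes and for 42.7% of all features. After the self-self median of each feature was taken off, it differed for 16 of 28, for 1 of 7 and for 45.4%. Psmb3, a core beta subunit, was at 1.63 on the repeat and 0.96 on the first array, so not every member turned. Its ratios were above 0 on the self-self arrays as well, at 0.51, 0.86 and 0.77. Whether the dyes were swapped was not tested.

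The members were tested with limma in a single fit over the 12 replicate arrays and 4682 features (genes and unnamed probes), and p was adjusted by Benjamini-Hochberg over all features of a comparison. Between 4 h and 20 min 0 of 35 members had an adjusted p below 0.05, against 0.598% of all features. At an unadjusted p below 0.05, 4 of 28 proteasome genes were higher at 4 h, against 6.3% of all features, and 0 were lower, against 7.22%. The arrays at 4 h and 20 min did not overlap for 6 proteasome genes, all higher at 4 h (Psmb6, Psmb1, Psma1, Psmd9, Psmb2 and Psma4), against 3.42% of all features, and for 0 in the other direction, against 3.12%. No ubiquitin enzyme met any of these criteria. The difference was above 0 for 24 of 28 proteasome genes, with a median of 0.16, and for 5 of 7 ubiquitin enzymes, with a median of 0.12, whereas 48.0% of all features lay above 0 with a median of -0.01. The medians of the 2 classes lay close to each other in this comparison, and genes of 1 complex are not independent of each other.

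The 20S core held the members with the smallest p. All 7 alpha subunits, which form the outer rings and gate of the barrel, had a difference above 0 (median 0.20), as did 6 of 7 beta subunits (median 0.17). Psma7 lay below 0, at -0.02, without array 5 at 4 h, and Psmb3, at -0.02, with the repeat of pair 2 sign-turned in place of the first array. Psmb6, the subunit with caspase-like activity, had ratios of 0.59, 0.47, 0.44, 0.24 and 0.50 at 4 h, against -0.04, -0.54, -0.15 and 0.17 at 20 min and 0.07, -0.22 and -0.02 on the self-self arrays. Every array at 4 h lay above every other array in the fit. The difference between 4 h and 20 min was 0.59 ± 0.14 (SE; 1.5-fold, 95% interval 0.29 to 0.88; limma adjusted p = 0.0935), which placed Psmb6 at rank 53 of the features by p.

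Psma1, an alpha subunit, had ratios of 0.40, 0.45, 0.39, 0.22 and 0.58 at 4 h, against -0.00, -0.44, -0.14 and 0.21 at 20 min and 0.05, -0.62 and 0.20 on the self-self arrays. The lowest array at 4 h lay just above the highest of the others. The difference between 4 h and 20 min was 0.50 ± 0.17 (SE; limma adjusted p = 0.222).

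Psmb1, a beta subunit without catalytic activity, had ratios of 0.03, 0.22, 0.56, 0.46 and 0.37 at 4 h, against -0.06, 0.01, 0.00 and 0.01 at 20 min. The arrays at 20 min lay close to 0 and those at 4 h were spread widely above them. On the self-self arrays Psmb1 was at 0.05, 0.27 and 0.11, inside the 4 h range. The difference between 4 h and 20 min was 0.34 ± 0.11 (SE; limma adjusted p = 0.202), and that between 4 h and self-self was 0.19 ± 0.12 (adjusted p = 0.556).

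The other catalytic subunits overlapped between the times. Psmb5, with chymotrypsin-like activity, had ratios of -0.12, -0.02, 0.04, 0.13 and 0.31 at 4 h, against -0.07, -0.07, -0.08 and 0.01 at 20 min, and the groups overlapped (difference 0.13 ± 0.10, SE; limma adjusted p = 0.636). Psmb7, with trypsin-like activity, had ratios of -0.34, -0.16, 0.10, 0.16 and 0.24 at 4 h, against 0.08, -0.05, 0.37 and 0.21 at 20 min. It was the only beta subunit of the constitutive core with a difference below 0 (-0.15 ± 0.15, SE; limma adjusted p = 0.728). Whether the difference of Psmb6 exceeds that of Psmb5 or Psmb7 was not tested.

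The inducible subunits, which replace catalytic ones in the immunoproteasome, were scattered. Psmb8, the counterpart of Psmb5, had ratios of -0.45, 0.16, 0.70, 0.46 and 0.21 at 4 h, against 0.20, 0.08, 0.18 and 0.10 at 20 min and 0.02, -0.71 and -0.11 on the self-self arrays. Psmb9, the counterpart of Psmb6, had ratios of -0.70, -0.07, 0.28, -0.49 and -0.06 at 4 h, against -0.14, -0.19, -0.31 and -0.16 at 20 min and 0.08, -0.02 and -0.02 on the self-self arrays. For both genes the 20 min arrays lay within the spread of those at 4 h, and the differences were 0.07 ± 0.21 for Psmb8 and -0.01 ± 0.17 for Psmb9 (SE). Array 1 was the lowest array at 4 h for both.

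In the 19S cap all 5 ATPases, which unfold the substrate, had a difference between 4 h and 20 min above 0, with a median of 0.05. Of these Psmc1 turned to -0.03 without array 3 at 4 h, and Psmc2 to -0.07 without array 4 at 4 h, -0.01 without array 2 at 4 h and -0.02 without the third array at 20 min. Psmc4 had ratios of 0.31, 0.16, 0.34, 0.12 and 0.43 at 4 h, against -0.44, 0.16, 0.04 and -0.05 at 20 min and -0.14, -0.93 and -0.18 on the self-self arrays. It lay above 0 on every array at 4 h, overlapped the 20 min arrays (difference 0.34 ± 0.17, SE; limma adjusted p = 0.418) and lay above all self-self arrays (difference 0.68 ± 0.19, SE; adjusted p = 0.256). The smallest p of any member against the self-self arrays at 4 h was this one. Without the self-self array 3HG, where Psmc4 was at -0.93, this difference was 0.43.

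Among the other 4 cap genes 3 had a difference above 0. Psmd9, a chaperone of cap assembly, had ratios of 0.20, 0.33, 0.13, 0.30 and 0.31 at 4 h, against 0.12, 0.01, -0.41 and -0.01 at 20 min and -0.22, -0.07 and 0.10 on the self-self arrays. Its arrays at 4 h were close together and lay above all others, though only just above the highest 20 min array (difference 0.33 ± 0.12, SE; limma adjusted p = 0.228). Psmd10, the cap assembly chaperone gankyrin, was below 0 on each of the 9 arrays at 4 h and 20 min, at -0.56, -0.29, -0.47, -0.68 and -0.42 at 4 h, against -0.32, -0.24, -0.07 and -0.11 at 20 min. The self-self arrays 3HG and 3HF were below 0 as well, at -0.19 and -0.35, while 1HG was at 7.31. A negative ratio of this probe was thus also present on 3HG and 3HF, where both channels held the same RNA. Psmd1, a scaffold subunit of the cap, has 2 probes, which averaged 0.32 ± 0.19 and 0.22 ± 0.06 at 4 h (SD, n = 5), against 0.07 ± 0.08 and 0.33 ± 0.22 at 20 min (n = 4), so the probes had opposite orders.

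The activators open the 20S barrel without the 19S cap. Psme1, a subunit of the PA28 ring, had ratios of 0.06, 0.20, 0.31, 0.45 and -0.16 at 4 h, against 0.12, -0.03, -0.10 and 0.10 at 20 min and 0.36, 0.24 and 0.02 on the self-self arrays. Its partner Psme2 had ratios of 0.16, -0.00, -0.13, 0.26 and 0.22 at 4 h, against 0.10, 0.06, 0.09 and 0.17 at 20 min. Both overlapped between the times. Psme4, which encodes PA200, had ratios of 0.08, 0.14, 0.07, 0.25 and 0.31 at 4 h, against -0.14, -0.17, 0.18 and 0.03 at 20 min and 0.02, -0.18 and 0.00 on the self-self arrays. It lay above the self-self arrays throughout and overlapped those at 20 min (difference between the times 0.20 ± 0.10, SE; limma adjusted p = 0.418).

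**Figure D2:**
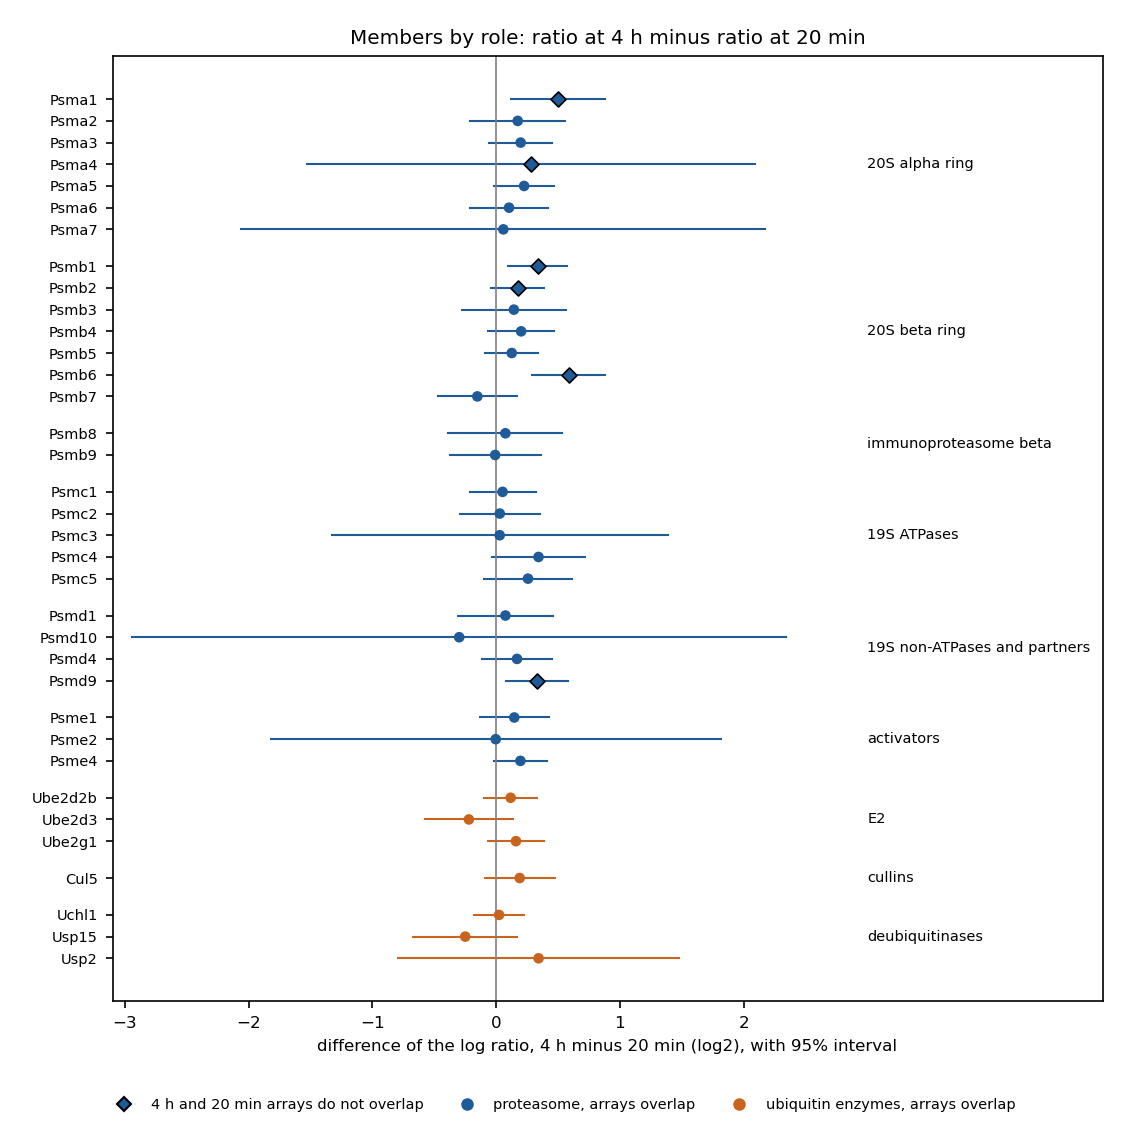
Difference of the log ratio between 4 h and 20 min (log2) for the 35 members grouped by role, with 95% intervals from the fit of 12 arrays; diamonds mark genes whose arrays at the 2 times do not overlap. All 7 alpha subunits lie right of 0 and Psmb6 is farthest at 0.59, while the long intervals of Psma4, Psma7, Psmc3, Psmd10, Psme2 and Usp2 belong to genes far from 0 on the self-self array 1HG.

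The ubiquitin enzymes had differences of both signs, and none passed the test. Among the E2 enzymes, Ube2g1 had ratios of -0.03, 0.10, -0.12, 0.14 and -0.18 at 4 h, against -0.28, -0.33, -0.04 and -0.05 at 20 min and -0.08, 0.13 and -0.00 on the self-self arrays, and the groups overlapped (4 h minus 20 min 0.16 ± 0.10, SE; limma adjusted p = 0.558). Ube2d3 had ratios of -0.67, -0.54, -0.25, -0.03 and 0.13 at 4 h, against -0.13, 0.05, -0.11 and -0.01 at 20 min and -0.05, 0.42 and 0.09 on the self-self arrays. Arrays 1 and 2 were far below 0 and array 5 above it. Ube2d2b, a close relative of Ube2d3, had ratios of -0.15, -0.00, -0.27, 0.08 and 0.12 at 4 h, against -0.24, -0.11, -0.19 and -0.11 at 20 min and 0.15, -0.06 and 0.14 on the self-self arrays. The sequences of these E2 genes are alike, and how far the probes tell them apart was not tested.

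Cul5, the scaffold of a family of cullin ligases, had ratios of -0.14, -0.26, 0.26, 0.25 and 0.28 at 4 h, against -0.28, -0.01, -0.10 and -0.05 at 20 min. The arrays at 4 h fell into 2 below 0 and 3 near 0.26 (difference 0.19 ± 0.13, SE; limma adjusted p = 0.576). Of the deubiquitinases, Usp15 had ratios of 0.12, -0.22, -0.77, -0.71 and -0.15 at 4 h, against -0.34, -0.25, 0.10 and 0.11 at 20 min and -0.18, 0.00 and -0.46 on the self-self arrays. Arrays 3 and 4 were the lowest of these. The repeat of pair 2 was at -1.18 as deposited, which would be the other direction if its dyes were swapped. Usp2 had ratios of 0.71, 0.50, 0.14, 0.48 and 0.47 at 4 h, against 0.11, 0.20, -0.14 and 0.29 at 20 min and 0.88 and 0.33 on the self-self arrays 3HG and 3HF. It was above 0 on 5 of 5 arrays at 4 h, as it was on these 2 self-self arrays, while 1HG was at -2.53. Uchl1, a hydrolase abundant in neurons, had ratios of -0.05, 0.28, 0.19, 0.02 and 0.02 at 4 h, against 0.01, 0.14, -0.02 and 0.14 at 20 min (difference 0.02 ± 0.09, SE; 95% interval -0.17 to 0.22).

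**Figure D3:**
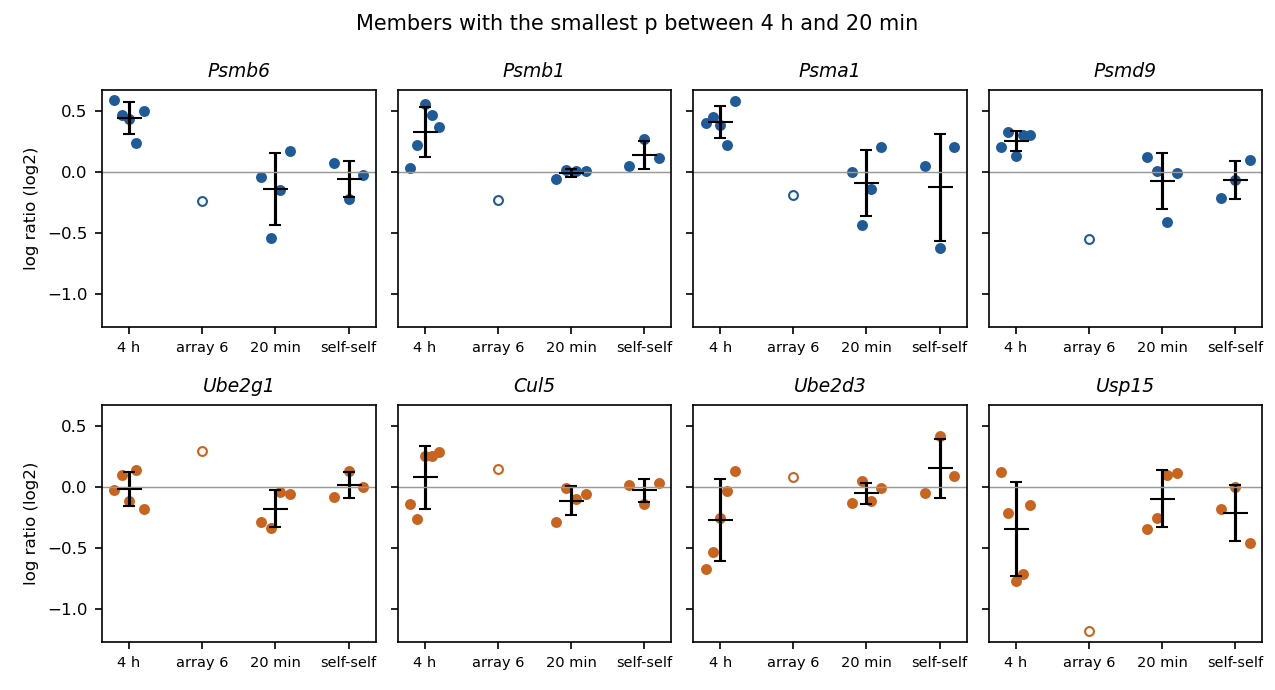
Log ratio (log2) on each array for the 4 proteasome genes (blue) and the 4 ubiquitin enzymes (orange) with the smallest p between 4 h and 20 min; filled points are arrays, bars the mean and SD of a group, and the open point the repeat of pair 2 (array 6). For Psmb6, Psmb1, Psma1 and Psmd9 the 5 arrays at 4 h lie above the 4 at 20 min and the repeat lies below 0, while the enzymes overlap between the times.

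Against the self-self arrays, whose ratios hold any dye effect of a probe, the proteasome genes at 4 h had differences of both signs. The difference was above 0 for 17 of 28, with a median of 0.13, against 48.5% of all features with a median of -0.01. For the ubiquitin enzymes it was above 0 for 3 of 7, with a median of -0.03. With limma 0 members had an adjusted p below 0.05, against 0.0641% of all features. At an unadjusted p below 0.05, 6 proteasome genes were higher (Psmc4, Psmb6, Psma1, Psmd9, Psmc5 and Psmb4), against 4.76% of all features, and 1 proteasome gene (Psma7) and 1 enzyme (Ube2d3) were lower, against 5.21%. The groups did not overlap for Psmc4, Psmb6, Psma1, Psmd9 and Psme4, all higher at 4 h, against 3.31% of all features, and for 0 members lower, against 3.4%. The difference of Psmb6 was 0.50 ± 0.15 (SE; limma adjusted p = 0.299), that of Psma1 0.53 ± 0.19 (adjusted p = 0.393) and that of Ube2d3 -0.42 ± 0.18 (adjusted p = 0.465).

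At 20 min the median of each class lay near the self-self arrays, but members far from 0 on the array 1HG did not. Psmd10, for example, had a difference of -2.44 with 1HG and 0.09 without it. This comparison uses the same 3 self-self arrays as that at 4 h. The difference was above 0 for 10 of 28 proteasome genes, with a median of -0.03, and for 2 of 7 ubiquitin enzymes, with a median of -0.08, against 50.6% of all features with a median of 0.00. With limma 0 members had an adjusted p below 0.05, against 0.0427% of all features. At an unadjusted p below 0.05, 0 members were higher, against 2.58%, and Psma7 was lower, against 2.63%. Psma7, an alpha subunit, had ratios of -0.21, 0.04, -0.09 and 0.08 at 20 min, against 6.46, 1.04 and -0.02 on the self-self arrays, and its difference was -0.56 without the array 1HG, against -2.54 with it. Psmb8 lay above all self-self arrays, against 3.57% of all features, and Psmb1, Psmb9 and Ube2d2b lay below them, against 3.44%. The difference of Ube2d2b was -0.24 ± 0.11 (SE; limma adjusted p = 0.801), that of Ube2g1 -0.19 ± 0.12 (adjusted p = 0.807) and that of Psmb8 0.41 ± 0.24 (adjusted p = 0.801).

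Single self-self arrays set several of these values. Without 3HG the difference of Psmc4 at 4 h was 0.43, against 0.68 with it, and that of Psma1 was 0.28, against 0.53. That of Psmb6 at 4 h was 0.42, against 0.50, and that of Psmb8 at 20 min was 0.19, against 0.41. The array 1HG held the values farthest from 0. On 1HG 7 of 35 members (20.0%) had a ratio beyond 1 in size, against 7.33% of all features, although both channels held the same RNA. The core subunits Psma4 and Psma7 were at 5.16 and 6.46, Psmc3, an ATPase of the cap, at 3.89, Psmd10 at 7.31, Psmd1 at 1.13, Psme2 at -5.05 and Usp2 at -2.53. Probes of Psma7, Psma4, Psmc3 and Psmd1 bear the consecutive numbers 4690, 4691, 4692 and 4693. Whether the share of members beyond 1 goes with the numbering of the probes was not tested. Without 1HG the difference at 4 h was 0.24 for Psma4, against -1.49 with it, 0.04 for Psmc3, against -1.25, -0.04 for Psme2, against 1.69, and -0.15 for Usp2, against 0.90. Psma7 was at -0.50, against -2.48, and Psmd10 at -0.21, against -2.74. Without 1HG 21 of 28 proteasome genes and 1 of 7 ubiquitin enzymes were above 0 at 4 h, with medians of 0.13 and -0.09. The comparison of 4 h with 20 min does not use these values, but its error estimate does: Psma4, at 0.23, 0.08, 0.21, 0.19 and 0.37 at 4 h, against -0.02, -0.05, -0.19 and -0.01 at 20 min, had a limma adjusted p of 0.942 with 1HG in the fit and 0.209 without it.

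**Figure D4:**
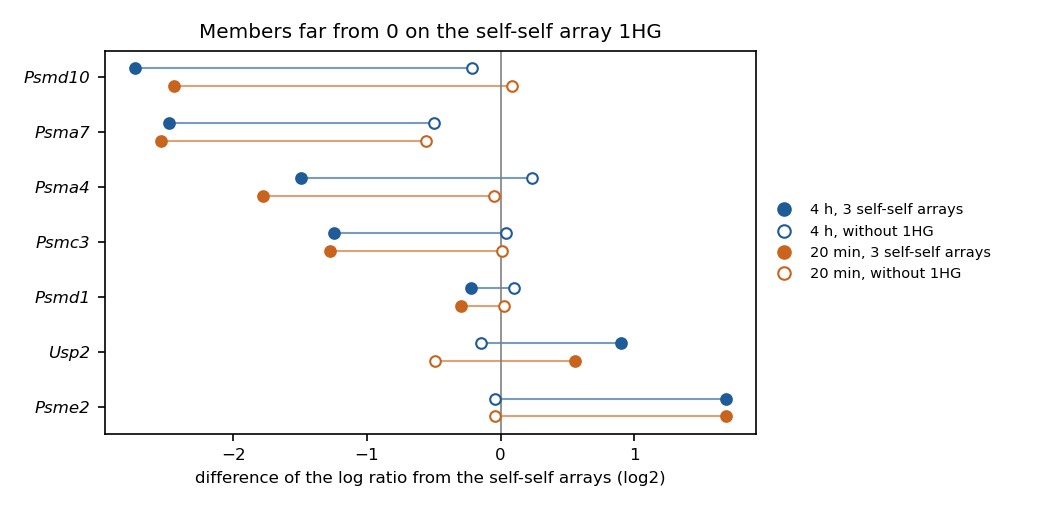
Difference of the log ratio (log2) from the self-self arrays at 4 h (blue) and 20 min (orange) for the 7 members beyond 1 in size on the self-self array 1HG, with all 3 self-self arrays (filled) and without 1HG (open). Psmd10 at 4 h is at -2.74 with and -0.21 without that array, and Psme2 is at 1.69 with and -0.04 without it.

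Other genes of the pathway were read from lists of 149 symbols, of which 50 outside the members were measured. The lists were chosen with earlier results of these data known, so the share of them called is only a description. Between 4 h and 20 min 3 of the 50 passed the test, all higher at 4 h, against 0.598% of all features called in either direction, and the difference was above 0 for 31, with a median of 0.08, against 48.0% of all features with a median of -0.01. Among 16 ligases and adaptors 6 were above 0 (median -0.07), and Rnf4, a ligase that targets proteins tagged with SUMO, had a higher ratio at 4 h than at 20 min. Its ratios were 0.91, 0.92, 0.82, 0.84 and 0.69 at 4 h, against 0.01, 0.30, 0.31 and 0.08 at 20 min and 0.53, 0.24 and 0.59 on the self-self arrays. On the repeat of pair 2, left out of the fit, Rnf4 was at 1.18, so its sign did not turn there as that of Slc2a5 did. The groups at 4 h and 20 min were far apart (difference 0.66 ± 0.10, SE; limma adjusted p = 0.0239), and the 4 h arrays also lay above the self-self arrays without passing that test (0.38 ± 0.11; adjusted p = 0.311). Ddb1, an adaptor of cullin ligases, had a difference of 0.38 (adjusted p = 0.13) and Vhl, the substrate receptor for hypoxia-inducible factors, one of -0.39 (adjusted p = 0.212).

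Among 8 genes listed as shuttle, unfoldase and ER-degradation genes 7 had a difference between 4 h and 20 min above 0 (median 0.12), against 48.0% of all features, and 2 passed the test, against 0.598%. The 2 were Herpud1 and Hspbp1. Hspbp1 is counted here although it is a co-chaperone, and the list was chosen with earlier results of these data known. Herpud1, a membrane protein of degradation at the endoplasmic reticulum, had ratios of 0.73, 0.49, 1.17, 1.02 and 1.08 at 4 h, against -0.33, -0.49, -0.66 and 0.47 at 20 min (difference 1.15 ± 0.21, SE; limma adjusted p = 0.0392). On the self-self arrays Herpud1 was at 0.08, 0.19 and -0.01. On the repeat of pair 2 it was at -0.39, so its sign turned there. Hspbp1, a co-chaperone of Hsp70, had ratios of -0.58, -0.12, -0.22, 0.04 and -0.50 at 4 h, against -1.42, -1.83, -1.09 and -1.45 at 20 min and -0.10, 0.18 and -0.25 on the self-self arrays. On the repeat of pair 2 Hspbp1 was at -0.69, with the same sign as on the first array. It was the 20 min arrays that stood apart: the difference between 4 h and 20 min was 1.17 ± 0.17 (SE; limma adjusted p = 0.0132) and that between 20 min and self-self was -1.39 ± 0.19 (adjusted p = 0.0266). Leaving out single arrays ended the limma call between 4 h and 20 min in 4 of 12 cases for Rnf4 (adjusted p up to 0.0775), in 9 of 12 for Herpud1 (up to 0.143) and in 2 of 12 for Hspbp1 (up to 0.0514), and the 20 min call of Hspbp1 in 8 of 12 (up to 0.234). Over all 22 alternatives the call between 4 h and 20 min was lost in 8 for Rnf4 (limma adjusted p up to 0.243, with the repeat of pair 2 sign-turned), in 12 for Herpud1 (up to 0.217) and in 3 for Hspbp1 (up to 0.0914), each of them with the repeat averaged with array 2. The 20 min call of Hspbp1 was lost in 12 of 22 (limma adjusted p up to 0.411, with only the 2 compared groups in the fit).

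No gene of the other lists passed the test between 4 h and 20 min. Of 10 substrates with dedicated adaptors 4 were above 0, with Azin1, the antizyme inhibitor, at -0.61 ± 0.17 (SE; limma adjusted p = 0.131) and Oaz1, the antizyme that leads ornithine decarboxylase to the proteasome, at 0.37 ± 0.12 (adjusted p = 0.208). Of 8 antigen processing partners 7 were above 0, with Canx, a chaperone of the endoplasmic reticulum, at 0.47 and Tap1, the peptide transporter, at 0.18, and B2m, the light chain of class I molecules, was at -0.31. The 3 regulators outside the name pattern were all above 0: Adrm1, a ubiquitin receptor of the cap, at 0.25, Mafg, a partner of NRF factors on DNA, at 0.11, and Nfe2l2, which encodes NRF2, at 0.03. The remaining 5 were Nedd8, the modifier that activates cullins, at 0.12, Fau, a ubiquitin-like protein fused to a ribosomal one, at 0.08, Gps1 of the COP9 signalosome at 0.11, and the proteases Senp2 at 0.31 and Atxn3 at -0.08.

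Markers of cell types were read on the same scale, where a ratio holds no level. Of 11 measured enterocyte markers 3 had a difference between 4 h and 20 min above 0 (median -0.22), and their median by array ran from -0.38 to -0.14 at 4 h, against -0.24 to -0.04 at 20 min and -0.16 to -0.06 on the self-self arrays. The median difference was -0.07 for 11 goblet, Paneth and endocrine markers, 0.02 for 4 crypt and cell cycle markers, -0.11 for 5 smooth muscle markers, 0.01 for 11 neuron and glia markers, which include Uchl1, -0.04 for 6 immune markers and 0.21 for 3 red blood cell markers. None of these genes passed the test between 4 h and 20 min (limma, smallest adjusted p 0.126). The enterocyte markers thus lay on the other side of 0 from the proteasome genes, and the part of cell composition in the proteasome values was not tested.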

How the data were processed

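The authors deposited 1 table of log ratios for 14 arrays of 2 colours, treated here as log2 values; scanner, background correction, normalization, logarithm base and sign convention were not given in the sources used here. Another base would rescale all differences by 1 factor and leave signs and p-values as they are. No channel intensities were used, so dim probes were kept, and the number of arrays limits the precision. Probes were named from the platform annotation (4426 with 1 symbol, 2 with several, 524 with none); 35 of the 36 member probes had their Entrez identifier in the RefSeq gene table of GRCr8.

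Each array was centred on its median and probes of 1 symbol were averaged, which left 4682 features. One fit with limma 3.58.1 in R 4.3.3 (lmFit, eBayes) held 3 groups and 12 arrays, with 9 residual degrees of freedom, and Benjamini-Hochberg adjustment ran over all features at a threshold of 0.05. The fits were tested on simulated data in which a feature had the same spread on every array. No simulated array was as wide as 1HG, so that test did not cover its effect. The members, gene lists and tests were chosen with earlier results of these data known. Array values were given for the members with the smallest p in each class and for catalytic, inducible and activator subunits. The alternatives concerned array 6, centring, scaling, probe averaging, the fit, the self-self control and leaving out single arrays. Another gene is not reported here.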

Additional observations from a re-analysis of the deposited data

Results flagged for a closer look

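Within the arrays at 20 min, 3 core subunits had 1 array far from the other 3 relative to their narrow range. Psmb1 was at -0.0576 on array 1 of that group, the others lying between 0.00448 and 0.0132. Psmb2 was at -0.0508 on array 2 of that group, the others lying between 0.0350 and 0.0436. Psmb5 was at 0.00627 on array 4 of that group, the others lying between -0.08 and -0.07. The gaps are small on the log2 scale, and chance gives such a gap in about 1 in 20 groups, against 3 in the 74 groups of values examined.

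Arrays outside the tests also differed from the self-self arrays. The proteasome median was -0.193 on array 6, the repeat of pair 2, against -0.04 to 0.08 on the self-self arrays. The median of the ubiquitin enzymes was 0.146 on array 6 and 0.170 on the primer array, against -0.05 to 0.13 on the self-self arrays.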

How the results depend on the processing

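No member had an adjusted p below 0.05 between 4 h and 20 min or between 20 min and self-self, in the main analysis or in any of the 22 alternatives run for each. For 4 h against self-self members were called in 2 of 22: with array 6 in place of array 2 and its sign turned, and with the ratio set against 0. The proteasome median kept its sign in every alternative, at 0.12 to 0.21 between 4 h and 20 min, 0.10 to 0.20 between 4 h and self-self and -0.08 to -0.00 between 20 min and self-self; for the ubiquitin enzymes the sign changed in 2 alternatives between 4 h and self-self. Without the 7 members beyond 1 on array 1HG, an alternative chosen after seeing the data, the proteasome medians were 0.17, 0.19 and -0.01 in these 3 comparisons. Those of the ubiquitin enzymes were then 0.07, -0.08 and -0.14. The median of the ubiquitin enzymes between 20 min and self-self, -0.08, lay between -0.20 (without 1HG) and -0.0268 when single arrays were left out.

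The count of features called depended on the processing. Between 4 h and self-self it was 3, and 0 with array 6 averaged with array 2, 344 with array 6 in place of array 2 and its sign turned, 763 with the ratio against 0, and 2 to 5 when single arrays were left out. Between 20 min and self-self it was 2, and 0 with array 6 averaged, with its sign turned, with arrays scaled to 1 spread and with only the compared groups in the fit, 384 with the ratio against 0, and 0 to 4 when single arrays were left out. Between 4 h and 20 min it was 28, and 0 with array 6 averaged, 17 with its sign turned, 16 with arrays scaled, 4 (without 20 min replicate 2) to 43 (without 1HG) when single arrays were left out, and 22 with the replicate block. Leaving out any single array other than 4 h replicates 4 and 5 moved this last count by over 1.5 times. The deviations of same-numbered arrays at the 2 times had an r of -0.07, 0.16, -0.03 and -0.02. For arrays of unlike number r ran from -0.17 to 0.20. These r values cannot settle whether the numbers pair the arrays.

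Signs changed in some alternative for 9 of 28 proteasome genes and 1 of 7 ubiquitin enzymes between 4 h and 20 min, 12 and 4 between 4 h and self-self, and 20 and 3 between 20 min and self-self. Between 4 h and 20 min 23 to 26 of 28 proteasome genes lay above 0 across the alternatives. In that comparison Psmd1 was at -0.10 with 1 probe in place of the mean, Psmb3 at -0.0181 with array 6 sign-turned, and Psmc2 at -0.0336 with array 6 averaged, and leaving out single arrays gave -0.0318 to 0.11 for Psmc1 and -0.0661 to 0.0987 for Psmc2. Psmb9 was at 0.00631 with array 6 sign-turned, 0.000772 uncentred, 0.0167 scaled and 0.0103 after quantile normalization, Psme2 at 0.00534 uncentred, Uchl1 at -0.0318 and Psmd10 at 0.17 with array 6 sign-turned, and Psma7 at -0.0223 with the replicate block. When single arrays were left out the ranges were -0.0468 to 0.24 for Psmb8, -0.13 to 0.12 for Psmb9, -0.0425 to 0.0556 for Psme2, -0.0237 to 0.0596 for Uchl1 and -0.0223 to 0.18 for Psma7. Between 4 h and self-self the ratio against 0 was 0.0117 for Psma7, 0.21 for Psma4 and 0.0658 for Psmc3, and leaving out single arrays gave -0.15 to 1.56 for Usp2, -2.40 to 0.24 for Psma4, -1.91 to 0.0420 for Psmc3 and -0.0433 to 2.61 for Psme2, in each case with 1HG as the array that turned the sign. The causes were not tested otherwise. With limma Psmb6 between 4 h and 20 min ran from 0.45 to 0.69, with a lowest adjusted p of 0.0655.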
